A study of Arabidopsis thaliana with 4 samples.

Results

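The serine carboxypeptidase-like (SCPL) genes of Arabidopsis thaliana were followed in whole 1-week-old seedlings of the exo70A1-2 mutant and of wild-type Col-0. Members were the ATH1 probe sets whose annotation names a single gene with a symbol of SCPL and a number, and 29 of the 22746 probe sets that are not controls qualified, each for a different gene. The RefSeq gene table holds 51 SCPL genes, and for 22 of them the annotation names no probe set of their own. The annotation names no gene for 8730 of the 22746 probe sets, and these were not searched for SCPL genes. Signal was compared on 2 exo70A1-2 arrays and 2 Col-0 arrays, with genotypes taken from the sample titles. Both genotypes share the Col-0 background, and both were raised upright on agar medium at 22 °C without a dark period. The mutant is represented by a single allele of EXO70A1, which encodes a subunit of the exocyst, the complex that tethers secretory vesicles at the plasma membrane. EXO70A1 itself had 0 named probe sets, and the genotype labels could therefore not be checked against its level.

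SCPL proteins are made with a signal peptide, enter the secretory pathway and act mainly in the vacuole or outside the cell. They share the fold and the catalytic serine, aspartate and histidine of carboxypeptidases, which remove amino acids from the carboxyl end of proteins. Some members have become acyltransferases instead, which move an acyl group such as sinapate from a glucose ester to another molecule. SNG1 (SCPL8) makes sinapoylmalate, a sunscreen of leaves, and SCPL19 (SNG2) makes sinapoylcholine in seeds, while BRS1 (SCPL24) is known as a suppressor of a weak brassinosteroid receptor mutant. None of these 3 genes had a named probe set here. The genes numbered 1 to 19, which include the known acyltransferases, were represented by 2 members of 19, and those numbered 20 to 51 by 27 of 32.

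Signals are the authors' scaled intensities, with a trimmed mean of 100 on every array and array medians between 37.3 and 38.8. Only probe sets whose log2 signal, averaged over the arrays, reached the 40th percentile were tested; that value, a signal of 21.9, is called the dim limit. Of the 29 members 14 passed this filter, all with signals above the limit on all 4 arrays, and 15 were too dim to be tested. Levels are compared between genotypes for each probe set. Signals of different probe sets, whose responses differ, are not read as relative amounts of RNA. The marker sums given below add such signals and are weighted to the brightest probe sets. Nothing in the labels tells separate cultures from repeat hybridisations, and the p-values rest on whatever spread, biological or technical, these replicate arrays show. In whole seedlings, fewer cells of a type and less RNA per cell cannot be told apart.

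SCPL35 and the carboxypeptidase Y gene SCPL49 fell most clearly in exo70A1-2, SCPL29 and SCPL20 fell by less, and SCPL34 rose. Of the 14 tested members 5 changed at an adjusted p under 0.05 (limma, Benjamini-Hochberg over all 13648 tested probe sets), 1 higher and 4 lower. Over the whole array 16% of tested probe sets changed, 8.54% higher and 7.5% lower, and among probe sets of 1 gene 14% did, 7.53% higher and 6.51% lower. The members' share, 35.7%, lies above both, a difference that was not tested. The members' median log2 fold change was -0.26, beside -0.00086 over all tested probe sets. Fitted values lay below 0 for 10 of 14 members, beside 50.1% of all tested probe sets. That count was 11 with quantile normalization or equal array medians, where SCPL42 turned, and ran from 8 (without Col-0 replicate 1) to 11 with arrays left out, being 9 without exo70A1-2 replicate 2. Leaving out exo70A1-2 replicate 2 brought the members' median to -0.14 and leaving out Col-0 replicate 1 to -0.15. Without exo70A1-2 replicate 2 only SCPL35 and SCPL49 were called lower, and without exo70A1-2 replicate 1 SCPL31 joined SCPL34 as higher.

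**Figure D1:**
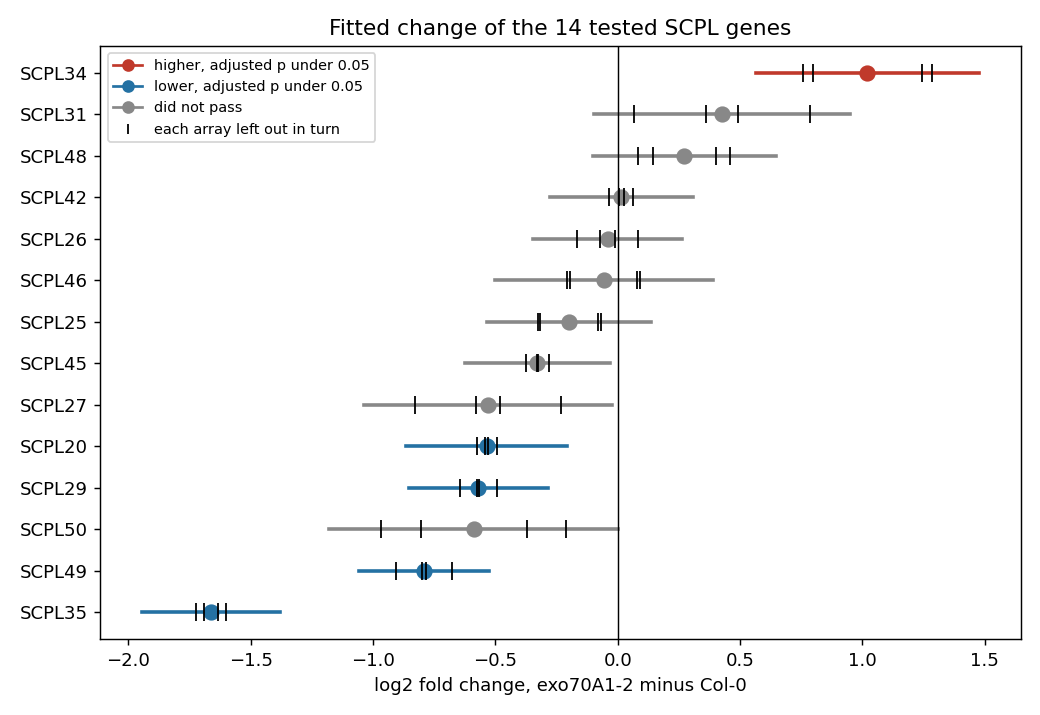
Log2 fold change of each tested SCPL gene, exo70A1-2 minus Col-0 (horizontal axis), with 1 row per gene from the highest to the lowest value. Lines are 95% intervals of the limma fit, colours mark genes that passed in each direction, and black ticks are the values with each array left out in turn; SCPL34 at 1.02 and SCPL35 at -1.66 stand at the ends.

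SCPL35 (AT5G08260), a gene annotated as a serine carboxypeptidase-like protein, had the largest fitted change of the 14 tested members. Its signal was 118 and 123 on the exo70A1-2 arrays, against 399 and 366 on the Col-0 arrays. Both mutant arrays lay far below both Col-0 arrays, and the gap was many times the difference between replicates. The means were 121 ± 3.47 in exo70A1-2 and 382 ± 23.0 in Col-0 (SD, n = 2 arrays each, here and below). The log2 fold change was -1.66 with a standard error of 0.12 and an adjusted p of 0.000188 (limma), which corresponds to a signal 3.16 times higher in Col-0. Ranked by fitted log2 fold change, it was the fall at place 48 among all 13648 tested probe sets. With each array left out in turn the value stayed between -1.72 and -1.60, and the call held.

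SCPL49 (AT3G10410), listed in RefSeq as carboxypeptidase Y, a carboxypeptidase of the vacuole, also fell. Its signal was 443 and 439 on the exo70A1-2 arrays, against 825 and 705 on the Col-0 arrays. The mutant arrays nearly coincided and lay well below both wild-type arrays. The log2 fold change was -0.79 (SE 0.12, 95% interval -1.06 to -0.53) with an adjusted p of 0.00327 (limma). The mean signal was 441 ± 2.89 in exo70A1-2 and 765 ± 84.7 in Col-0.

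SCPL48 (AT3G45010) and SCPL47 (AT5G22980), which belong to the same branch of the family as SCPL49, were not called. SCPL48 had a signal of 231 and 178 on the exo70A1-2 arrays, against 183 and 153 on the Col-0 arrays. The genotypes overlapped, and the log2 fold change of 0.27 did not pass (95% interval -0.10 to 0.65; limma, adjusted p = 0.294). SCPL47 was dim, with signals of 12.5 and 7.75 in exo70A1-2 and 6.98 and 11.5 in Col-0, and was not tested.

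SCPL34 (AT5G23210) was the member that rose. Its signal was 379 and 516 on the exo70A1-2 arrays, against 182 and 261 on the Col-0 arrays. The replicates of each genotype differed more than those of SCPL35, but the lowest mutant array still lay above the highest Col-0 array. The means were 447 ± 96.8 in exo70A1-2 and 222 ± 56.4 in Col-0. The log2 fold change was 1.02 (SE 0.20, adjusted p = 0.0113, limma), a 2.03-fold higher signal in the mutant. Across the arrays left out in turn it ran from 0.76 to 1.28 and kept its call.

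SCPL29 (AT4G30810) and SCPL20 (AT4G12910), both annotated as serine carboxypeptidase-like proteins, fell by similar amounts. For SCPL29 the signal was 173 and 172 on the exo70A1-2 arrays, against 242 and 269 on the Col-0 arrays. The log2 fold change was -0.57 (SE 0.13, adjusted p = 0.0177, limma). For SCPL20 the signal was 73.0 and 72.5 on the exo70A1-2 arrays, against 103 and 109 on the Col-0 arrays. The log2 fold change was -0.54 (SE 0.14, adjusted p = 0.0375, limma). For both genes the mutant replicates were almost equal and neither genotype overlapped the other. Both calls ended when an array was left out: that of SCPL29 without exo70A1-2 replicate 1 (limma, adjusted p = 0.0697) or replicate 2 (0.0967), and that of SCPL20 without exo70A1-2 replicate 1 (0.143), exo70A1-2 replicate 2 (0.193) or Col-0 replicate 2 (0.0614). The call of SCPL20 also ended with no filter on dim probe sets (0.0532).

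**Figure D2:**
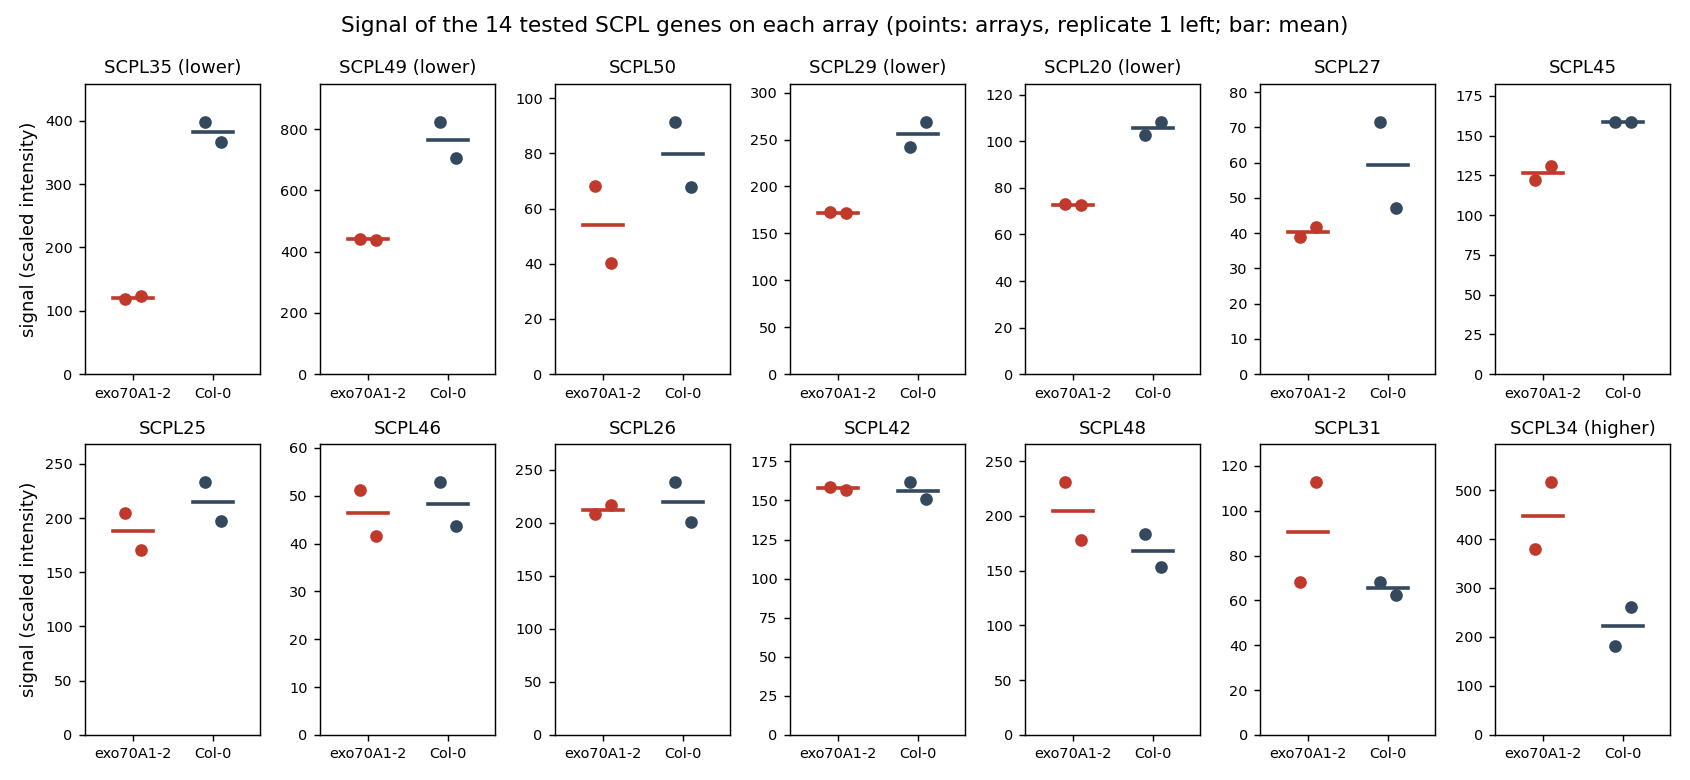
Signal of each of the 14 tested SCPL genes (vertical axes, scaled intensity from 0) on the 2 exo70A1-2 arrays (left in each panel) and the 2 Col-0 arrays (right), with the mean as a bar. Panels run from the largest fall to the largest rise; in SCPL35 the mutant arrays read 118 and 123 and the Col-0 arrays 399 and 366.

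The remaining 9 tested members did not pass. Of these SCPL50, SCPL27 and SCPL45 had the lowest log2 fold changes. SCPL50 (AT1G15000) had a signal of 68.0 and 40.3 on the exo70A1-2 arrays, against 91.6 and 67.8 on the Col-0 arrays. Its first mutant array matched its second Col-0 array, and the log2 fold change of -0.59 had a wide 95% interval, -1.18 to 0.0027 (limma, adjusted p = 0.161). It passed without Col-0 replicate 2 (adjusted p = 0.0452, limma) and without exo70A1-2 replicate 1 (0.0203). SCPL27 (AT3G07990) had 39.0 and 41.7 in exo70A1-2, against 71.6 and 47.3 in Col-0. The mutant arrays lay below both Col-0 arrays, 1 of which was close to them, and the log2 fold change was -0.53 (95% interval -1.04 to -0.022; limma, adjusted p = 0.144). It passed without Col-0 replicate 2 (limma, adjusted p = 0.0135). SCPL45 (AT1G28110) had 122 and 131 in exo70A1-2, against 159 and 158 in Col-0. The groups did not overlap and the log2 fold change was -0.33 (95% interval -0.62 to -0.031; limma, adjusted p = 0.125).

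SCPL31 (AT1G11080) was split by 1 array. It had a signal of 68.4 and 113 on the exo70A1-2 arrays, against 68.3 and 62.5 on the Col-0 arrays. The first mutant array nearly equalled the first Col-0 array, while the second stood well above all the others. The log2 fold change of 0.43 did not pass (95% interval -0.097 to 0.95; limma, adjusted p = 0.243), and it was 0.066 without exo70A1-2 replicate 2 and 0.79 without exo70A1-2 replicate 1, where it passed (limma, adjusted p = 0.0371).

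The other 4 members, SCPL25, SCPL26, SCPL42 and SCPL46, had log2 fold changes between -0.20 and 0.014, with overlapping genotypes. SCPL25 (AT3G02110) read 205 and 171 in exo70A1-2, against 233 and 197 in Col-0, a log2 fold change of -0.20 (95% interval -0.53 to 0.14). SCPL26 (AT2G35780) read 208 and 217 in exo70A1-2, against 238 and 200 in Col-0 (log2 fold change -0.041, 95% interval -0.35 to 0.26). SCPL42 (AT5G42240) read 159 and 157 in exo70A1-2, against 162 and 151 in Col-0 (log2 fold change 0.014, 95% interval -0.28 to 0.31). The mutant arrays of SCPL26 and of SCPL42 lay between their Col-0 arrays. SCPL46 (AT2G33530) read 51.2 and 41.7 in exo70A1-2, against 52.8 and 43.7 in Col-0 (log2 fold change -0.057, 95% interval -0.50 to 0.39). The intervals of SCPL26 and SCPL42 are the narrowest of the 4, and that of SCPL46 the widest.

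Both mutant arrays lay on one side of both Col-0 arrays for 8 of the 14 tested members, 6 with the mutant lower and 2 with it higher. Over all tested probe sets this share was 60.6%, with 30.6% lower and 30% higher, so 8 of 14 is near the background. Among the 2 higher members SCPL31 was separated only narrowly, its first mutant array at 68.38 against 68.32 on the first Col-0 array. The standard errors of the members had a median of 0.15, beside 0.16 over all tested probe sets. The median absolute log2 fold change was 0.48 for the members and 0.24 for all tested probe sets. The scatter of all tested probe sets places the members by brightness and change.

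**Figure D3:**
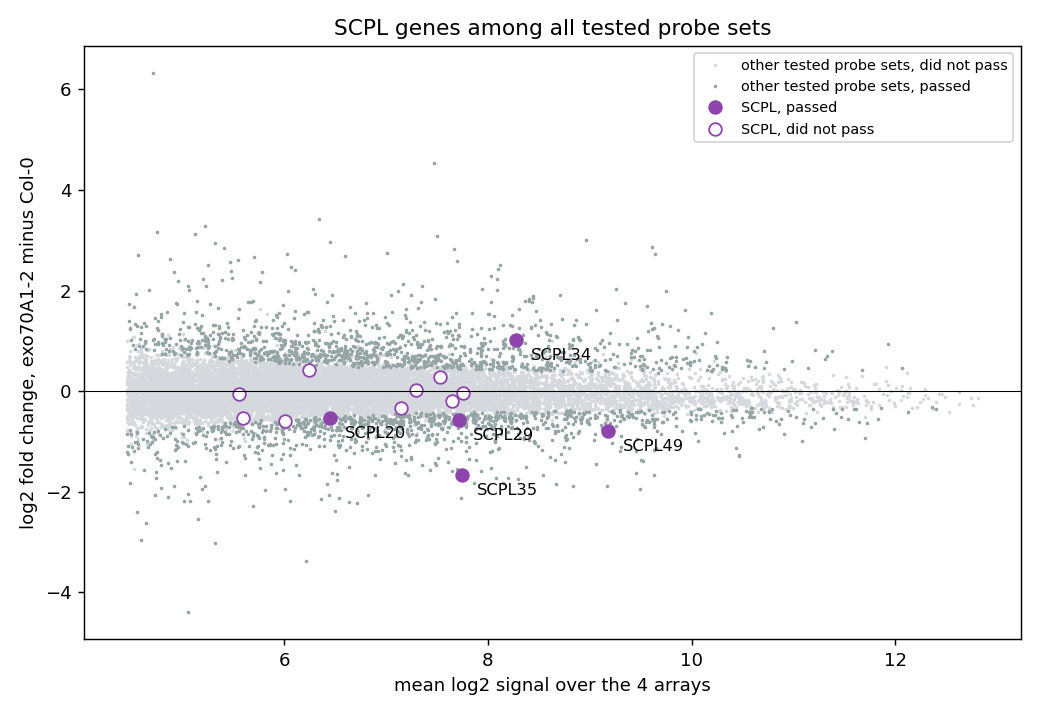
Log2 fold change, exo70A1-2 minus Col-0 (vertical axis), against the mean log2 signal over the 4 arrays (horizontal axis) for all 13648 tested probe sets. SCPL genes are purple circles, filled where they passed; SCPL35, at -1.66, lies below nearly all probe sets of its brightness, and SCPL34, at 1.02, lies above the dense part of the cloud.

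The 15 members that were not tested lay below the dim limit when averaged over the 4 arrays. All but SCPL28 did so in both genotypes. For 14 of them all 4 arrays lay below the dim limit, the highest reading being 20.7, for SCPL40 (AT3G63470) on a Col-0 array. SCPL28 (AT2G35770) was the member just outside the filter, with 18.4 and 18.7 in exo70A1-2, against 20.9 and 25.03 in Col-0, while the tested member with the lowest single reading was SCPL27 at 39.0. SCPL28 neighbours SCPL26 on the chromosome, so of this adjacent pair 1 gene was tested and the other was not. The adjacent genes SCPL22 (AT2G24000) and SCPL23 (AT2G24010) were both dim, at 0.451 and 0.285 in exo70A1-2 and 0.451 and 0.425 in Col-0 for SCPL22.

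Both members with numbers up to 19 were dim. SCPL16 (AT3G12220) read 4.04 and 0.713 in exo70A1-2, against 3.79 and 0.486 in Col-0. SCPL18 (AT1G33540) read 4.95 and 2.72 in exo70A1-2, against 1.25 and 0.919 in Col-0, all far below the dim limit. The group of the known acyltransferases was therefore not covered by any tested probe set with an SCPL name. Whether unnamed probe sets measure its genes was not examined. SCPL41 (AT5G42230), SCPL22 and SCPL38 (AT2G05850) also read under 5 on every array, as did SCPL16 and SCPL18. SCPL21, SCPL30, SCPL32, SCPL33, SCPL43 and SCPL44 completed the dim members. With no filter on dim probe sets none of the 15 passed (limma, lowest adjusted p = 0.270; 0 had an unadjusted p under 0.05). A further 2 probe sets that list an SCPL symbol beside another gene were left out, and neither read above 0.382 on any array.

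**Figure D4:**
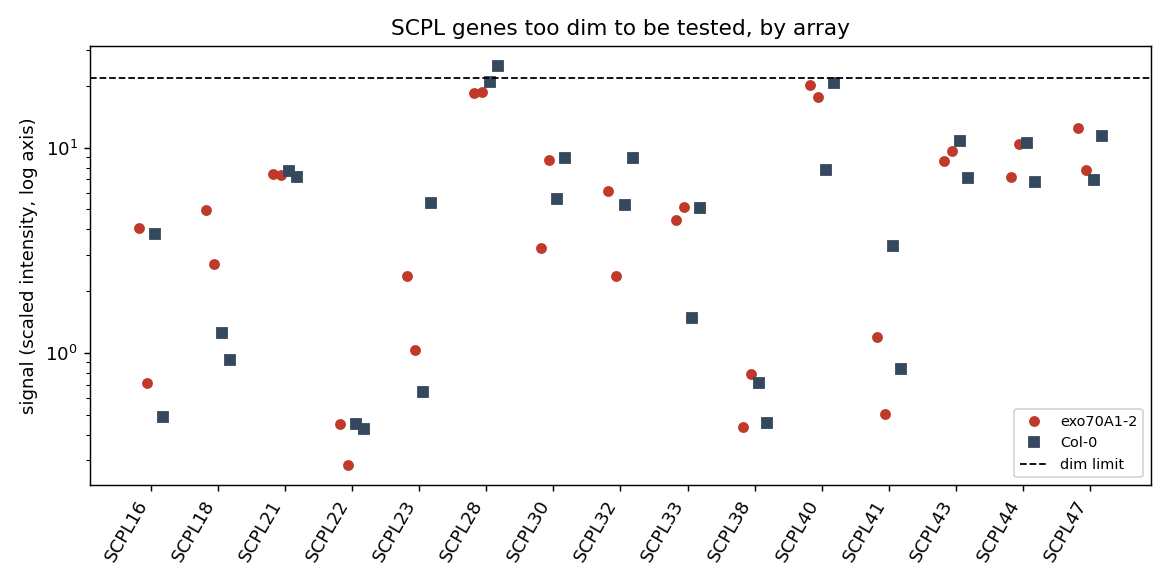
Signal on each array (vertical axis, scaled intensity on a log axis) of the 15 SCPL genes that were not tested, with exo70A1-2 arrays as circles left of the Col-0 arrays as squares. The dashed line is the dim limit of 21.9, and the only reading above it is that of SCPL28 on a Col-0 array, at 25.03.

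Genes that supply or act beside SCPL proteins were read from lists of named genes. Only probe sets annotated with a single gene were used, so listed genes without such a probe set were not followed. Of 24 genes of the phenylpropanoid and sinapate ester pathway 6 were tested, 1 was lower and 0 were higher, with a median log2 fold change of -0.14; at an array-wide share of 16%, 1 call among 6 genes is near the background. The gene that passed was UGT84A3 (AT4G15490), one of the glucosyltransferases that make the hydroxycinnamate glucose esters on which SCPL acyltransferases draw. Its signal was 27.3 and 29.6 in exo70A1-2, against 47.1 and 53.6 in Col-0. The groups did not overlap, and the log2 fold change was -0.82 (SE 0.19, adjusted p = 0.0228, limma). This call ended on leaving out exo70A1-2 replicate 1 (limma, adjusted p = 0.0900), exo70A1-2 replicate 2 (0.0681) or Col-0 replicate 2 (0.0514), and with no filter (0.0586). Its relative UGT84A4 stood at -0.34, REF1, the aldehyde dehydrogenase that forms sinapate and ferulate, at -0.21, and HCT, an acyltransferase of lignin precursor synthesis, at -0.064, none of which passed.

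Of 18 other vacuolar and secreted peptidase genes 4 were tested and 0 changed (limma; 0 had an unadjusted p under 0.05). GAMMA-VPE (AT4G32940), the vacuolar processing enzyme known to mature carboxypeptidase Y, read 514 and 533 in exo70A1-2, against 499 and 512 in Col-0. Its arrays lay close together in both genotypes and the log2 fold change was 0.050 (95% interval -0.19 to 0.29; limma, adjusted p = 0.787). The vacuolar aspartic protease gene APA1 stood at 0.10 and the subtilase gene ARA12 at -0.011 on the log2 scale. BETA-VPE (AT1G62710), another vacuolar processing enzyme, read 48.3 and 37.8 in exo70A1-2, against 34.7 and 26.2 in Col-0. Its mutant arrays lay above both Col-0 arrays, and the log2 fold change of 0.50 did not pass (95% interval -0.019 to 1.02; limma, adjusted p = 0.172). ALPHA-VPE (AT2G25940) was not tested, with 27.0 and 38.0 in exo70A1-2, against 19.6 and 10.4 in Col-0, above the dim limit on the mutant arrays only. DELTA-VPE was dim on all 4 arrays. Of 17 brassinosteroid genes 1 had a named probe set of its own, the receptor homologue BRL1, which was dim.

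Markers of both roots and green shoots were above the dim limit on all arrays, and the label is whole plant. The ER body and jacalin genes PYK10, NAI2 and JAL33 and both shoot genes gave high signals, while EXPA7 and EXPA18, expansins of root hairs, read between 49.3 and 68.4. None of the 5 root markers or the 2 green shoot markers tested passed. Their summed signals were 7423 and 7490 in exo70A1-2, against 7246 and 7213 in Col-0, for roots, and 8763 and 9005 in exo70A1-2, against 10104 and 9325 in Col-0, for green shoots. The sums did not overlap between genotypes. Of all tested probe sets 60.6% likewise had both mutant arrays on one side of both Col-0 arrays. No shift in the share of roots or shoots is read from the sums. The root sum is mostly PYK10, which read 4356 and 4440 in exo70A1-2, against 4551 and 4505 in Col-0, while JAL33 and NAI2 lay higher on both mutant arrays and EXPA7 and EXPA18 overlapped. Of the 2 green shoot genes RCA read 4629 and 4764 in exo70A1-2, against 5572 and 4912 in Col-0. LHCB4.1 read 4135 and 4241 in exo70A1-2, against 4531 and 4413 in Col-0. The markers' part in the changes of the SCPL genes was not tested. The lists of xylem and seed markers had 0 named probe sets.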

How the data were processed

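RNA of whole seedlings was labelled with biotin by 3' in vitro transcription, per the labels' protocols, and measured on 4 ATH1 arrays. The deposited values are linear intensities, 1 for each probe set on each array. MAS5 and GCOS are named, with no version, per the submitters' processing notes. The values show that each array had been scaled to a mean of 100 after trimming 2% at each end. MAS5 treats arrays singly, and its low signals are noisy. Detection calls were not used here.

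From the intensities log2 was taken with nothing added. The 64 control probe sets were left out, and the 13648 probe sets whose mean log2 signal reached the 40th percentile were fitted with limma 3.58.1 in R 4.3.3 (lmFit, eBayes with an intensity trend). The test was two-sided, with Benjamini-Hochberg adjustment over all of them and a threshold of 0.05. Standard errors and 95% intervals are those of the moderated fit. The fit was tested on simulated data. Names came from a probe annotation of the array, and all 29 members matched the RefSeq table of assembly TAIR10.1, used only for names and neighbours. Every member is accounted for; of the other lists, changed members and up to 3 unchanged ones, the brightest, are named. BETA-VPE, ALPHA-VPE and DELTA-VPE were added, and root and green shoot markers named, after their values were seen. Members and lists were chosen with earlier results of these data known. The 14 alternatives were other scalings, filters, an added constant, variance priors, thresholds, the replicate number as a block, and leaving out each array. The number of arrays limits the precision.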

Additional observations from a re-analysis of the deposited data

How the results depend on the processing

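SCPL35 and SCPL34 kept their direction and call in all 14 alternatives, and SCPL49 in all but the 2-fold threshold, which by construction left 1 member lower. Over the arrays left out in turn, the number of members lower ran from 2 to 5, the number higher from 1 to 2 and the members' median from -0.32 to -0.14, the lone array of a genotype being assumed to vary like the others. With no filter the members' median was -0.057, since dim members entered it. With the replicate number as a block 7 members were lower, SCPL27 (limma, adjusted p = 0.0413), SCPL45 (0.0437) and SCPL50 (0.00809) being added, while 31.3% of all tested probe sets changed. No label tells what same-numbered arrays have in common, and replicate differences of the genotypes correlated at 0.28 across tested probe sets; what this stems from was not tested. With 2 arrays per genotype and no such label, the main result has no block. The single list gene that changed, UGT84A3, was lost with no filter, with the 60th percentile filter, which left it out, and at 2-fold, where the count was 0, and the count ran from 0 to 1 with arrays left out. Of members that did not pass, the sign turned for SCPL42 with quantile normalization (-0.0061) and with equal array medians (-0.017), and over arrays left out for SCPL26 (-0.17 to 0.084), SCPL42 (-0.035 to 0.064) and SCPL46 (-0.21 to 0.092), and for ARA12, which stood at 0.12 without Col-0 replicate 2. The cause of these differences was not tested unless stated. Dim signals limit what can be said of the 15 untested members.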
